A study of Homo sapiens with 6 samples.

Results

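Desmosomes and the other cell-to-cell contacts of the intercalated disc were followed in human cardiomyocytes with and without the kinase gene STK25. The set held 10 genes chosen by name: DSG2, DSC2, JUP, PKP2, PKP4, DSP, DES, CDH2, CTNNA1 and CTNNA3. All 10 were among the 35793 gene symbols of the deposited table, and all 10 were among the 15536 genes with a mean of at least 10 normalized counts, which were tested. The cells were cardiomyocytes differentiated from WTC11, a widely used human induced pluripotent stem cell line. Wild-type cells were unedited WTC11, and knockout cells came from a WTC11 derivative with both copies of STK25 disrupted by CRISPR/Cas9. Neither genotype received a treatment, both were kept in RPMI 1640 with B27 supplement, and both were taken on day 15 of differentiation with 3 biological replicates each. The knockout was 1 line, so what the edit did cannot be told apart from whatever else sets the lines apart.

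The intercalated disc is the seam where neighbouring cardiomyocytes meet. Desmosomes rivet the intermediate filaments of one cell to those of the next: the cadherins desmoglein and desmocollin cross the gap, plakoglobin and plakophilins bind their tails, and desmoplakin joins them to desmin filaments. Adherens junctions do the same for actin through N-cadherin and the catenins, and in the heart both kinds mix into a composite junction. Inherited variants in desmosomal genes are the main known cause of arrhythmogenic cardiomyopathy.

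The 6 libraries held from 22443904 to 53224112 recovered reads (a read count obtained by undoing the division by 1 factor per library). No library had fewer than 356 reads of any of the 10 genes, so counting error was small beside the spread between replicates. STK25 itself had 8874, 6774 and 8710 normalized counts in wild-type replicates 1, 2 and 3 and 3906, 3434 and 3820 in knockout replicates 1, 2 and 3. Wild-type replicate 2 and knockout replicate 1 stood apart from the other libraries on the second principal component of all tested genes (24.1% of the variance). Results are therefore also given without these libraries, an alternative chosen after the data were seen. Cardiomyocyte markers were present in every library, with TNNT2 from 206999 to 359162 normalized counts, and the sum of 14 such markers ran from 1528324 to 1922122 in wild-type and from 2174524 to 3969637 in knockout libraries, with MYL7 the most abundant of them. Of these 14 genes 9 were fitted higher and 5 lower in the knockout. In 6 all knockout values lay above all wild-type values and in 3 below (16.2% and 17.2% of all tested genes). At an adjusted p under 0.05 (limma) 0 were called higher and 2 lower, beside 12.8% of all tested genes in either direction. The 2 called were the cardiac transcription factor NKX2-5 and PLN (phospholamban). NKX2-5 was at 21091 and 6444 normalized counts on average in wild-type and knockout libraries (limma adjusted p = 0.00135) and PLN at 55599 and 32697 (limma adjusted p = 0.0459). Among fits that left out 1 library, the call of PLN held only without knockout replicate 1. In such bulk samples fewer cells of a type and less RNA per cell cannot be told apart.

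None of the 10 genes passed the test between genotypes. With limma on log2(value + 1) and Benjamini-Hochberg adjustment over all tested genes, 0 of 10 had an adjusted p under 0.05, against 12.8% of all genes tested. At an unadjusted p under 0.05 there were also 0 of 10, against 27.5% of all genes. edgeR's quasi-likelihood test called 0 of 10 (12.0% of all genes) and DESeq2 0 of 10 (20.7% of all genes). In none of the 10 did the 3 values of one genotype all lie above those of the other, whereas 33.4% of all genes tested showed such a gap. Log2 fold changes of knockout over wild type ran from -0.34 for DSP to 0.71 for CTNNA1, with a median of 0.20 beside 0.01 over all tested genes, and 6 of the 10 were above 0. The median of the 10 was -0.013 without wild-type replicate 2. With libraries scaled to equal totals it was -0.081, beside -0.27 over all tested genes. The sum over the 10 genes was 75769 ± 23667 normalized counts (SD, n = 3) in wild-type and 81196 ± 25085 (SD, n = 3) in knockout libraries.

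**Figure D1:**
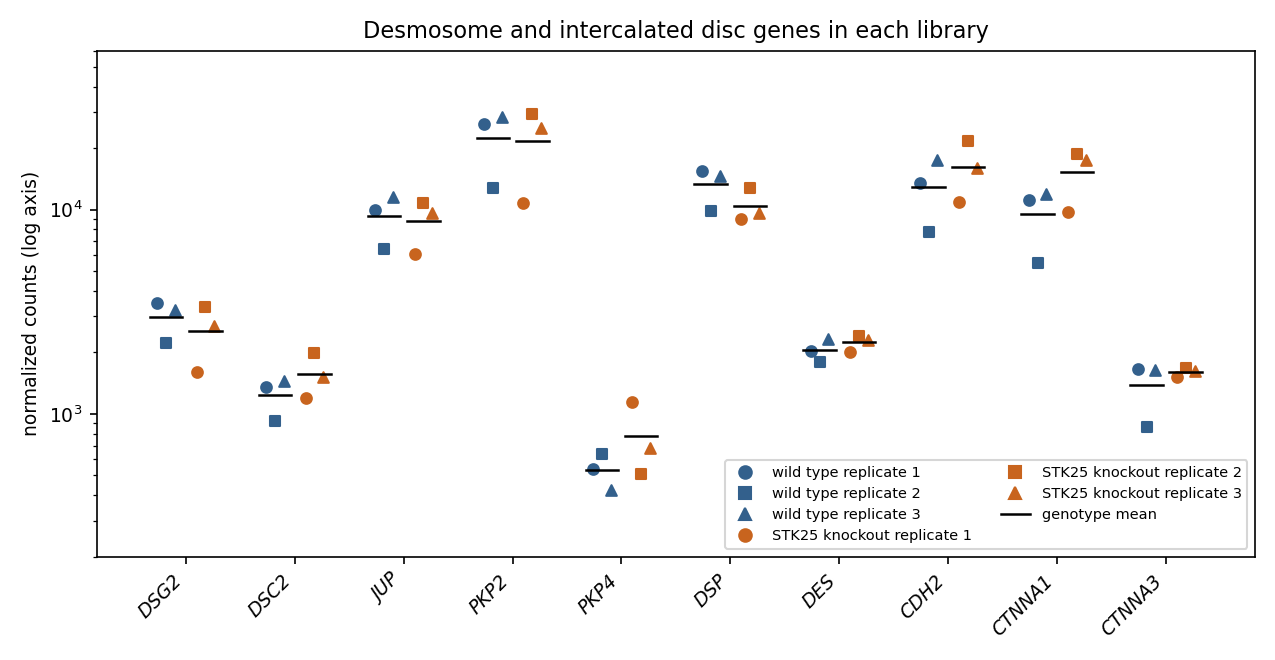
Normalized counts of each gene in each library, on a log axis, with wild-type libraries in blue, knockout libraries in orange, a marker shape for each replicate number and a black bar for the mean of 3 libraries. For all 10 genes the values of the genotypes overlap, and in 9 of 10 the blue square and the orange circle (wild-type replicate 2 and knockout replicate 1) are the lowest of their genotype.

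The desmosomal cadherins came first. DSG2 (ENSG00000046604.12, chr18:31498043-31549008, plus strand, in GENCODE 29 on GRCh38, as are all gene positions here) encodes desmoglein 2, the main desmoglein of the heart. It had 3494, 2220 and 3235 normalized counts in wild-type and 1608, 3349 and 2703 in knockout libraries. Its lowest value was in knockout replicate 1, and the other values of the genotypes overlapped. The log2 fold change was -0.26 with a 95% interval from -0.99 to 0.46 (limma adjusted p = 0.652), which became 0.039 without knockout replicate 1. DSC2 (ENSG00000134755.15, chr18:31058840-31102522, minus strand) encodes desmocollin 2, its partner across the gap. It had 1355, 922 and 1441 normalized counts in wild-type and 1199, 1983 and 1522 in knockout libraries. The highest 2 values were in the knockout, but knockout replicate 1 lay inside the wild-type range. Its log2 fold change was 0.34 with a 95% interval from -0.29 to 0.96 (limma adjusted p = 0.479).

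The cadherins were then set against each other within each library, where the scaling of the library cancels. The ratio of DSG2 to DSC2 was 2.58, 2.41 and 2.25 in wild-type replicates 1, 2 and 3 and 1.34, 1.69 and 1.78 in knockout replicates 1, 2 and 3. All 3 wild-type ratios lay above all 3 knockout ratios, although neither gene alone separated the genotypes. Of the 5 ratios computed 2 separated the genotypes in this way, beside 33.4% of single genes, so the lack of overlap alone does not set the ratio apart; the share over all pairs of genes was not computed. On the log2 scale the ratio was 1.27 ± 0.10 (SD, n = 3) in wild-type and 0.67 ± 0.22 (SD, n = 3) in knockout libraries, a difference of -0.60, or 1.51-fold. An exact two-sided permutation test gave p = 0.1, the smallest p that 3 against 3 libraries allow, and 0.25 after Benjamini-Hochberg adjustment over the 5 ratios tested. With 1 library left out the difference ran from -0.68 (knockout replicate 3) to -0.47 (knockout replicate 1).

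The stretches just before the starts of 4 genes are shown because DSG2 and DSC2 encode partner cadherins and because DSP and PKP4 moved in opposite directions between libraries (described further on). RefSeq's promoter table (GRCh38.p14, first entry per gene) held 8 of the 10 genes. Bases at or after the GENCODE start are left out. Capitals mark GGGCGG on either strand, the GC box that Sp1-type factors are known to bind.
DSG2, chr18:31497927-31498042, plus strand: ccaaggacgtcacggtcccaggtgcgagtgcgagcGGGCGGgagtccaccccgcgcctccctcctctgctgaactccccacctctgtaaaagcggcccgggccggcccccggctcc
DSC2, chr18:31102523-31102671, minus strand: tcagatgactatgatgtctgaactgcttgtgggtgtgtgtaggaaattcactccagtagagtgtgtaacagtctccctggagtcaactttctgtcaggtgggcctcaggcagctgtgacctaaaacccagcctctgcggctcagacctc
DSP, chr6:7541421-7541574, plus strand: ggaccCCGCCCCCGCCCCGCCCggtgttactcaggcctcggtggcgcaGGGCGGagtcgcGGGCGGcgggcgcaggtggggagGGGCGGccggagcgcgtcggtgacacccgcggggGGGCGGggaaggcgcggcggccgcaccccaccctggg
PKP4, chr2:158456702-158456951, plus strand: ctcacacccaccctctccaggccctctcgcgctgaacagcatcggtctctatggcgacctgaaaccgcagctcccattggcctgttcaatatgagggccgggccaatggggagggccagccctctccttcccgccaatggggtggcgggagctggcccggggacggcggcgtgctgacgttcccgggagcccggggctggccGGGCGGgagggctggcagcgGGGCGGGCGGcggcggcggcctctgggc
In the 250 bases before the RefSeq start, GGGCGG was found on either strand in 7 of 8 members, and in 42.3% of 27305 promoters searched in the same way. DSP had 7 matches, PKP4 had 3, DSG2 had 2 and DSC2 had 1, with overlapping matches counted apart. The stretches shown hold 7, 3, 1 and 0 of these. Of the 250 bases, 0 in CDH2, 0 in CTNNA1 and 30 in JUP lay before the GENCODE start. GC content of the 250 bases was 38.8% in CTNNA3, the member without GGGCGG, and from 59.6% (DSC2) to 80% (CTNNA1) in the others. The median over all promoters was 58%. The part of GC content in these matches was not tested. The letters TATAAA and GGAATG were in 0 of 8, against 11.1% and 11.9% of all promoters, and the MEF2 and SRF motifs were in 0 of 8, against 0.535% and 1.14%. CANNTG was in DSG2, DSC2 and DSP (62.2% of all promoters), and the letters AGATAA or AGATAG, or the same with T as the first base, were in JUP and CTNNA3 (22.9% of all). These are matches of letters only.

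The armadillo proteins link cadherin tails to desmoplakin. JUP (ENSG00000173801.16, chr17:41754604-41786931, minus strand) encodes plakoglobin, which sits in desmosomes and in adherens junctions. Its values were 9948, 6435 and 11534 normalized counts in wild-type and 6073, 10810 and 9665 in knockout libraries. Each genotype had 1 low library, and the ranges almost coincided. Knockout over wild type, the log2 fold change was -0.07 with a 95% interval from -0.78 to 0.63 (limma adjusted p = 0.914); leaving out wild-type replicate 3 gave 0.10 and leaving out knockout replicate 1 gave 0.18. Beta-catenin (CTNNB1), the paralog that JUP resembles, had 8767, 5675 and 12219 normalized counts in wild-type and 5084, 10154 and 8768 in knockout libraries (log2 fold change -0.14, limma adjusted p = 0.848). The ratio of JUP to CTNNB1 within libraries ran from 0.944 to 1.13 in wild-type and from 1.06 to 1.19 in knockout libraries, a log2 difference of 0.069 (exact two-sided permutation p = 0.7, 0.7 adjusted over 5).

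PKP2 (ENSG00000057294.14, chr12:32790745-32896840, minus strand) encodes plakophilin 2, the plakophilin of the cardiac desmosome and the gene most often mutated in arrhythmogenic cardiomyopathy. It had 26144, 12833 and 28532 normalized counts in wild-type and 10765, 29244 and 25020 in knockout libraries. The low library of each genotype stood at under 50% of the mean of the other libraries of its genotype, with 46.9% for wild-type replicate 2 and 39.7% for knockout replicate 1. The log2 fold change was -0.09 with the widest 95% interval of the 10 genes, from -1.14 to 0.95 (limma adjusted p = 0.925). It changed sign on leaving out wild-type replicates 1 (0.056) or 3 (0.12) or knockout replicate 1 (0.35), so the data set only limits on it: a change from 0.455-fold to 1.93-fold lay inside the interval.

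PKP4 (ENSG00000144283.21, chr2:158456964-158682879, plus strand) encodes an armadillo protein related to p120 catenin that is found at cell contacts. It had 538, 635 and 425 normalized counts in wild-type and 1139, 509 and 683 in knockout libraries. Its highest value was in knockout replicate 1, the library where each of the other 9 genes had its lowest knockout value. Its log2 fold change was 0.48 with a 95% interval from -0.29 to 1.26 (limma adjusted p = 0.403), and 0.17 without knockout replicate 1. The ratio of PKP2 to PKP4 was 48.6, 20.2 and 67.2 in wild-type and 9.45, 57.4 and 36.6 in knockout libraries. Its log2 difference of -0.58 (exact two-sided permutation p = 0.6, 0.7 adjusted over 5) rested on knockout replicate 1 and was 0.18 without it.

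DSP (ENSG00000096696.13, chr6:7541575-7586717, plus strand) encodes desmoplakin, the plakin that ties the junction to intermediate filaments. It had 15542, 9824 and 14543 normalized counts in wild-type and 8969, 12758 and 9622 in knockout libraries. The top 2 values were wild-type, and only wild-type replicate 2 fell into the knockout range. Knockout over wild type, the log2 fold change of -0.34, the lowest of the 10, had a 95% interval from -0.91 to 0.24 (limma adjusted p = 0.436). It was -0.44 without wild-type replicate 2 and knockout replicate 1 (limma adjusted p = 0.0585), in a fit that called 28.9% of all genes. DES (ENSG00000175084.11, chr2:219418377-219426739, plus strand) encodes desmin, the muscle intermediate filament that desmoplakin holds. With 2035, 1798 and 2327 normalized counts in wild-type and 2003, 2402 and 2305 in knockout libraries, it varied least in the wild type, where the highest library was 1.29 times the lowest. The log2 fold change was 0.13 with a 95% interval from -0.31 to 0.57 (limma adjusted p = 0.730), which was -0.15 with libraries scaled to equal totals, a scaling that moved the median of all genes from 0.01 to -0.27.

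The adherens junction members were higher in the knockout on average, but not beyond the spread between replicates. CDH2 (ENSG00000170558.8, chr18:27950966-28177446, minus strand) encodes N-cadherin, the classical cadherin of cardiomyocytes. It had 13565, 7790 and 17465 normalized counts in wild-type and 10885, 21666 and 15909 in knockout libraries, with overlapping ranges. Its log2 fold change was 0.34 with a 95% interval from -0.50 to 1.18 (limma adjusted p = 0.606) and 0.014 without wild-type replicate 2. Set against desmoglein 2 within libraries, however, CDH2 was 3.88, 3.51 and 5.40 times DSG2 in wild-type and 6.77, 6.47 and 5.89 times in knockout libraries, so that all knockout ratios lay above all wild-type ratios. The log2 ratio of CDH2 to DSG2 was 2.07 ± 0.33 (SD, n = 3) in wild-type and 2.67 ± 0.10 (SD, n = 3) in knockout libraries, a difference of 0.60 or 1.52-fold. The exact two-sided permutation test gave the smallest possible p of 0.1, or 0.25 adjusted over 5 ratios. It shares DSG2 with the ratio of DSG2 to DSC2 and is no second line of evidence.

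CTNNA1 (ENSG00000044115.20, chr5:138610967-138935034, plus strand) encodes alpha-E-catenin, which couples cadherin complexes to actin. It had 11177, 5482 and 11912 normalized counts in wild-type and 9700, 18769 and 17509 in knockout libraries. Knockout replicates 2 and 3 lay above every other library, and knockout replicate 1 lay among the wild-type values. Knockout over wild type, the log2 fold change of 0.71 was the largest of the 10 (95% interval from -0.16 to 1.58, limma adjusted p = 0.271). It was lowest, at 0.35, without wild-type replicate 2 and highest, at 1.01, on leaving out knockout replicate 1 (lowest limma adjusted p of 0.101 when 1 library was left out). With both of these libraries left out CTNNA1 was the only one of the 10 genes to pass, at 0.65 (limma adjusted p = 0.00408), but the same 4 libraries called 28.9% of all genes. CTNNA3 (ENSG00000183230.16, chr10:65912518-67696169, minus strand) encodes alpha-T-catenin, which binds plakophilin 2 as well as the cadherin complex. It had 1649, 858 and 1648 normalized counts in wild-type and 1520, 1671 and 1625 in knockout libraries, so that wild-type replicate 2 alone stood low. The log2 fold change of 0.27 (95% interval from -0.38 to 0.93, limma adjusted p = 0.594) was -0.040 without wild-type replicate 2. The ratio of CTNNA1 to CTNNA3 was 6.78, 6.39 and 7.23 in wild-type and 6.38, 11.2 and 10.8 in knockout libraries, a log2 difference of 0.43 (exact two-sided permutation p = 0.4, 0.667 adjusted over 5).

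**Figure D2:**
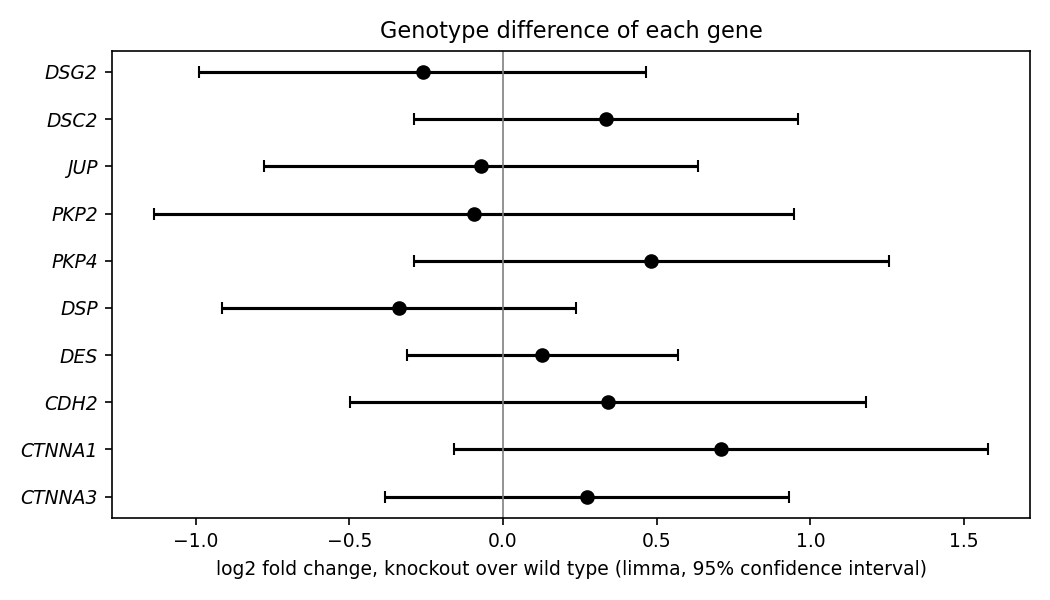
Log2 fold change of knockout over wild type for each gene, with 95% confidence intervals from limma as horizontal bars and a grey line at 0. Every interval includes 0; that of PKP2 is the widest, from -1.14 to 0.95, and that of DES the narrowest, from -0.31 to 0.57.

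**Figure D3:**
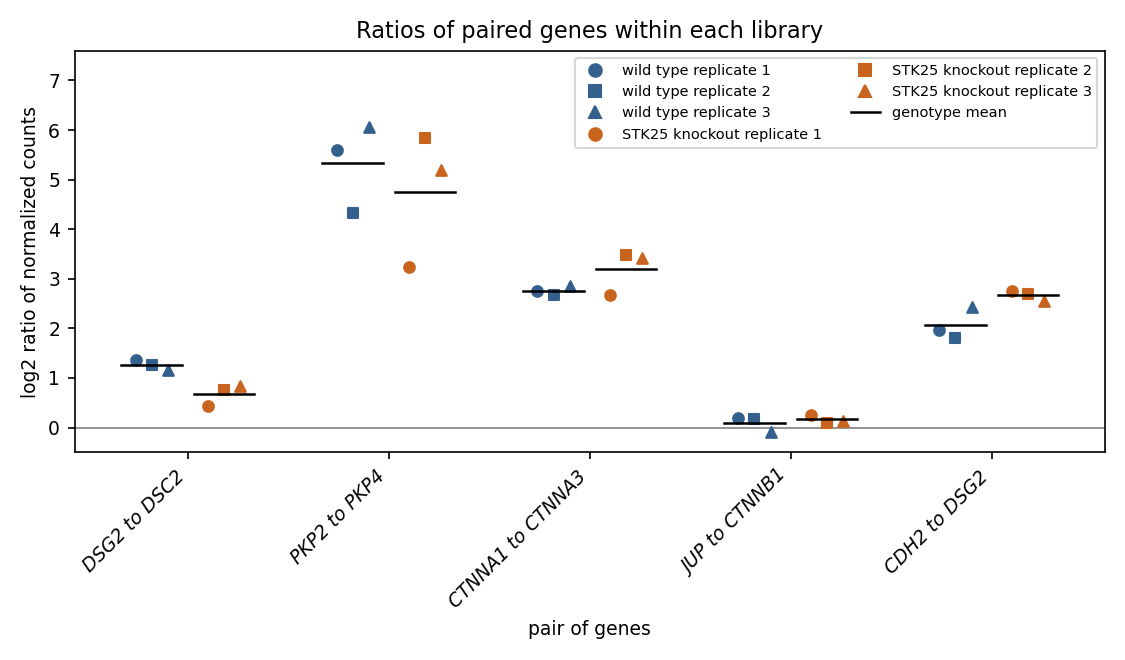
Log2 ratio of 2 genes within each library for the 5 pairs tested, with wild-type libraries in blue, knockout libraries in orange, a marker shape for each replicate number and black bars for means of 3 libraries. The genotypes do not overlap for DSG2 to DSC2 and CDH2 to DSG2, and overlap for the other 3 pairs.

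Within the span of CTNNA3 lies another gene, LRRTM3, which encodes a neuronal synapse adhesion protein (chr10:66926006-67099830). LRRTM3 rose from 162, 154 and 108 normalized counts in the wild type to 642, 1162 and 833 in the knockout, a log2 fold change of 2.61 ± 0.31 (SE, limma adjusted p = 0.00214). The knockout values were all above the wild-type ones, in contrast to the host gene. The table gives gene totals, and whether reads were counted by strand is not given in the sources used here, so reads where the genes overlap cannot be assigned anew. CTNNA2, a paralog of CTNNA1 and CTNNA3, averaged 7.33 normalized counts in wild-type and 34.5 in knockout libraries, with overlapping values (log2 fold change 1.84, limma adjusted p = 0.216). Of the other paralogs, pseudogenes, antisense and nested genes listed, 8 names were not analysed here.

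Levels were compared between genes per kilobase of the longest basic GENCODE transcript. In the wild type the order was PKP2 with 5231 ± 1966, CDH2 with 2987 ± 1124, JUP with 2661 ± 746, CTNNA1 with 2486 ± 919, DSP with 1358 ± 312, DES with 913 ± 118, DSG2 with 512 ± 115, CTNNA3 with 130 ± 42.8, DSC2 with 101 ± 22.5 and PKP4 with 92.2 ± 18.2 normalized counts per kilobase (SD, n = 3 each). From PKP2 down to DES each gene overlapped its neighbour in range, as did CTNNA3, DSC2 and PKP4 among themselves. DES lay above DSG2, and DSG2 above CTNNA3, in every pairing of libraries. Desmoglein 2 was thus several times as abundant per kilobase as desmocollin 2 in these cells (at least 381 against at most 117 in any wild-type library). In the knockout the leading genes were PKP2 with 5039 ± 2251, CTNNA1 with 4001 ± 1282 and CDH2 with 3729 ± 1245 (SD, n = 3 each), whose ranges overlapped. With the median transcript length in place of the longest, DSC2 came before CTNNA3 in the wild type, and all other ranks of that genotype were the same.

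Most of these genes were lowest in the same library of each genotype. In 9 of the 10, wild-type replicate 2 was the lowest wild-type library and knockout replicate 1 the lowest knockout library, a pattern found in 30.7% of all tested genes. PKP4 had the opposite pattern, highest in both, found in 29.6% of all tested genes. The median of the 10 genes was 62.6% of the other wild-type libraries in wild-type replicate 2 and 63.9% of the other knockout libraries in knockout replicate 1, beside 98.5% and 97.6% over all tested genes. Between them the members differed in depth of the dip: CTNNA1 fell to 47.5% and 53.5%, DSP to 65.3% and 80.1%, and DES only to 82.4% and 85.1%. Beta-catenin, with 54.1% and 53.7%, and vinculin (VCL), which binds alpha-catenin under tension, with 35.0% and 44.0%, were low in the same libraries.

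Transcript length moved with this library pattern over all genes. Among the shortest of 4 equal classes of tested protein-coding genes (longest transcript of at most 2153 bases) 7.32% were lowest in both libraries and 58.7% highest in both. In the other classes 37.6%, 46.3% and 35.6% were lowest in both, in order of rising length. None of the 10 members was in the shortest class: DES was in the next, JUP, PKP2, CDH2 and CTNNA1 in the third and DSG2, DSC2, PKP4, DSP and CTNNA3 in the longest. The part of transcript length in the members' pattern was not tested.

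**Figure D4:**
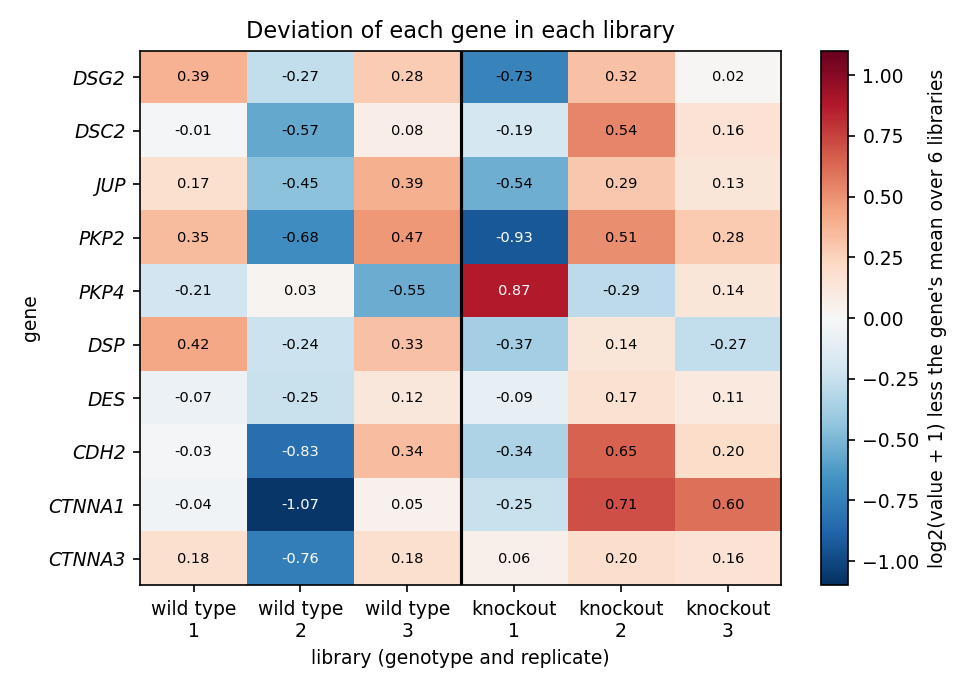
Deviation of each gene in each library from its own mean over 6 libraries, on the log2(value + 1) scale, with libraries in columns and genes in rows. Blue cells mark low values: wild-type replicate 2 is below 0 for 9 of 10 genes and reaches -1.07 for CTNNA1, while knockout replicate 1 is below 0 for 8 of 10 and reaches -0.93 for PKP2 and 0.87 for PKP4.

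The genes closest in profile were found by the root mean square difference over the 6 libraries between log2(value + 1) profiles, each less its own mean, among 12417 protein-coding genes with a mean of at least 50. For PKP2 they were TRPC4AP (0.031), RRN3 (0.039) and EIF4G2 (0.044). For DSP they were PPP1R10 (0.062), WFS1 (0.071) and LRBA (0.076). No other member was among the 400 nearest of either: DSG2 was the nearest member to DSP, at rank 428 (0.21), and JUP the nearest to PKP2, at rank 470 (0.23). Among the 10 the closest pair was DSG2 with JUP (0.16) and the most distant PKP2 with PKP4 (0.98).

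Some other genes of the same structures did differ between genotypes. Across 4 lists of related genes (other desmosome genes, adherens junction genes, intercalated disc partners, intermediate filaments and linkers), 16 of the 65 tested genes passed, 9 higher (background 5.97%) and 7 lower (background 6.79%), beside the 0 of 10 members. Leaving out wild-type replicate 1 gave 6 calls, and leaving out either wild-type replicate 3 or knockout replicate 3 gave 8. Calls over all genes also varied with the library left out (given further on). These lower counts are therefore not read as a result about the related genes. There were 32 calls of 65 without both wild-type replicate 2 and knockout replicate 1, where 28.9% of all genes were called.

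Among 10 other desmosome genes only 4 were expressed enough to be tested. Of these 2 passed, in opposite directions, beside 12.8% of all tested genes. DSC3 (chr18:30990008-31042815), the desmocollin of stratified epithelia and a neighbour of DSC2, rose from 54.4, 2.29 and 5.74 normalized counts to 352, 270 and 217, a log2 fold change of 4.68 ± 0.96 (SE, limma adjusted p = 0.0187). All knockout values lay above the wild-type ones, and even so DSC3 stayed below DSC2 in normalized counts in every library. Its call was lost without wild-type replicate 3 or either of knockout replicates 2 and 3 (highest limma adjusted p = 0.0707). PKP3 (chr11:392614-404908), an epithelial plakophilin, had 64.9, 19.8 and 39.5 normalized counts in wild-type and 0, 1.11 and 0 in knockout libraries (limma adjusted p = 0.00918). The knockout libraries held 1 read against 131 in the wild type, a ratio of 104 per unit of depth with an exact 95% interval, for counting error only, from 18.3 to 4134. Its call was lost without wild-type replicate 1 or wild-type replicate 3 (highest limma adjusted p = 0.0633). PERP, a small membrane protein of desmosomes, had 6321 ± 333 normalized counts in wild-type and 9623 ± 436 in knockout libraries (SD, n = 3 each), with no overlap but an adjusted p of 0.0532 (limma). PPL, encoding periplakin, was at 206 and 39.7 normalized counts on average (limma adjusted p = 0.121). The keratinocyte desmogleins DSG1 and DSG4 had 0 reads in every library.

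Of 22 tested adherens junction genes 4 passed, 2 higher and 2 lower, beside 12.8% of all tested genes. A count this near that share is not read as a result about the list. The classical cadherin CDH3 (P-cadherin) fell from 8176, 4675 and 7826 normalized counts to 925, 1837 and 1978, a log2 fold change of -2.16 ± 0.35 (SE, limma adjusted p = 0.00768). CDH13 (T-cadherin, anchored in the membrane without a tail) rose from 153, 98.3 and 179 to 411, 765 and 573, by 2.01 ± 0.35 on the log2 scale (SE, limma adjusted p = 0.00997). These calls held in every fit that left out 1 library. CDH4 (R-cadherin, a near relative of CDH2) rose to 486 ± 151 normalized counts from 144 ± 40.7 (SD, n = 3 each, limma adjusted p = 0.0201), and the nectin NECTIN1 fell from 196 ± 117 to 27.1 ± 15.8 (SD, n = 3 each, limma adjusted p = 0.0303). The call of CDH4 did not survive leaving out wild-type replicate 1 or knockout replicates 2 or 3 (highest limma adjusted p = 0.0864) and with equal totals (0.0618). That of NECTIN1 was lost without any 1 wild-type library or knockout replicate 3 (highest limma adjusted p = 0.105). The catenin partners did not pass: CTNND1 (p120 catenin) had a log2 fold change of -0.03 (limma adjusted p = 0.983) and VCL 0.83 (limma adjusted p = 0.326). Without wild-type replicate 2 and knockout replicate 1 VCL was at 0.72 (limma adjusted p = 0.00609), in a fit that called 28.9% of all genes.

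Of 23 tested intercalated disc partners 4 passed, again 2 in each direction and again near the 12.8% of all tested genes. GJA1 (connexin 43, the gap junction channel of the disc) fell from 690, 981 and 498 normalized counts to 16.5, 33.4 and 26.7, a log2 fold change of -4.77 ± 0.40 (SE, limma adjusted p = 0.000495). POPDC2, a cAMP-binding membrane protein of muscle, rose to 24478 ± 6586 normalized counts from 9667 ± 487 (SD, n = 3 each, limma adjusted p = 0.0104), and LIMS2 (PINCH2, of the integrin adhesion complex) from 2702 ± 140 to 5630 ± 312 (SD, n = 3 each, limma adjusted p = 0.00665). The call of GJA1 held whichever library was left out. That of POPDC2 was lost without wild-type replicate 1 or 3 (highest limma adjusted p = 0.0644), and that of LIMS2 without wild-type replicate 1 (0.0507).

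Of 17 tested intermediate filament genes and linkers 6 passed, 4 higher and 2 lower, beside 12.8% of all tested genes, while desmin did not. The keratins KRT8 and KRT18, partners in the filaments of simple epithelia, rose from 65505 ± 5733 to 144870 ± 21406 and from 49054 ± 3341 to 150037 ± 4598 normalized counts (SD, n = 3 each, limma adjusted p = 0.0218 and 0.00348). KRT19 fell from 12908 ± 2007 to 4910 ± 130 (SD, n = 3 each, limma adjusted p = 0.00341). KRT8 and KRT18 overlap in the annotation and have many pseudogenes, so their split of reads is uncertain. The small heat shock protein CRYAB, a chaperone of desmin, rose from 16719 ± 4453 to 53876 ± 23556 (SD, n = 3 each, limma adjusted p = 0.0195), and synemin (SYNM), which joins desmin filaments, from 578 ± 100 to 1253 ± 213 (SD, n = 3 each, limma adjusted p = 0.0195). LMNB1, a nuclear lamin, fell from 729 ± 152 to 257 ± 99.5 (SD, n = 3 each, limma adjusted p = 0.0283). The calls of KRT18 and KRT19 held whichever library was left out. Those of KRT8 (lost in all such fits except the one without knockout replicate 1), LMNB1 (without any 1 wild-type library or knockout replicate 3), SYNM (without wild-type replicate 1, knockout replicate 2 or 3) and CRYAB (without wild-type replicate 1 or 3 or knockout replicate 3) did not, with adjusted p-values (limma) up to 0.106, 0.112, 0.0967 and 0.0949. With equal totals KRT8 and SYNM were at adjusted p-values of 0.0692 and 0.0628 (limma).

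**Figure D5:**
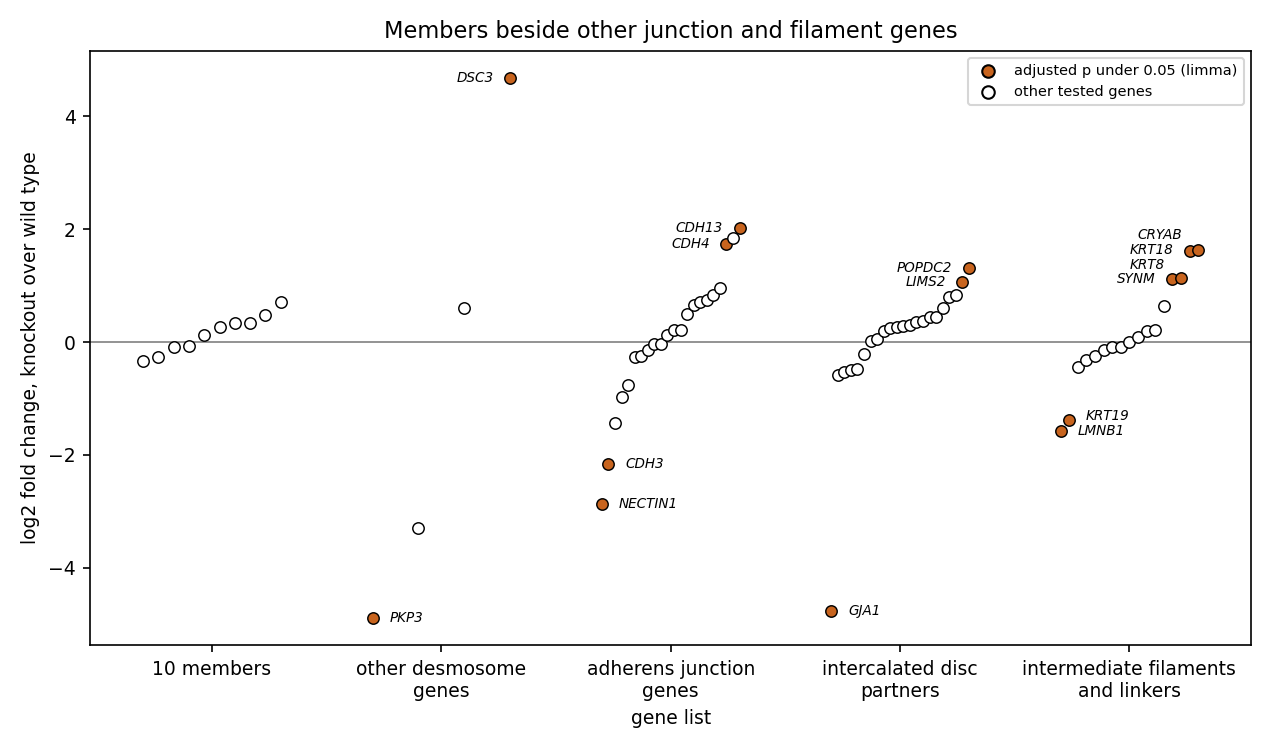
Log2 fold change of knockout over wild type for the 10 members and the tested genes of 4 related lists (less 1 disc partner that is not shown), sorted within each list along the horizontal axis, with filled points for an adjusted p under 0.05 (limma). The 10 members lie between -0.34 and 0.71 with no filled point, whereas DSC3 at 4.68, PKP3 at -4.89 and GJA1 at -4.77 are the farthest from 0 among the related genes.

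Several of these genes also belong to other cell types. Over all tested genes 5.97% were called higher and 6.79% lower, and 16.2% lay higher and 17.2% lower without overlap. Epithelial markers (16 genes) summed to between 142463 and 149913 normalized counts in wild-type and between 285544 and 317437 in knockout libraries, most of it KRT8 and KRT18. Of the 14 tested, 2 were called higher and 3 lower. By fitted value 4 were higher and 10 lower, and without overlap 2 lay higher and 7 lower. EPCAM did not pass (log2 fold change -0.20, limma adjusted p = 0.660). CDH1, the epithelial cadherin, ran from 4.44 to 31.8 normalized counts over the 6 libraries and the epithelial factor GRHL2 from 0 to 13.6. Smooth muscle markers (6 genes) summed to between 84615 and 96017 in wild-type and between 493033 and 544533 in knockout libraries, with 4 of 6 called, all higher. Of the 6, 5 lay higher without overlap and MYOCD lay lower (log2 fold change -0.63, limma adjusted p = 0.107). Epicardial markers (8 genes) summed to between 328 and 355 in wild-type and between 1150 and 1320 in knockout libraries, with 2 of 7 tested called, both higher. Fibroblast and stromal markers (8 genes) summed to between 12924 and 26543 in wild-type and between 7871 and 16397 in knockout libraries, with 3 higher and 1 lower. Neural markers (7 genes) summed to at most 3747 in wild-type and at least 4571 in knockout libraries, most of it NCAM1. NCAM1 did not pass (limma adjusted p = 0.146). Of the 6 neural markers tested 3 were called, all higher. Pluripotency markers (7 genes) summed to at most 1681 in wild-type and at least 3104 in knockout libraries. Of the 6 tested only TDGF1 was called, at 560 and 3516 normalized counts on average in wild-type and knockout libraries. Without overlap 2 of the 6 lay higher and 2 lower (DNMT3B and ZFP42). Endothelial markers (8 genes) summed to between 174 and 478 in wild-type and between 418 and 584 in knockout libraries, with 0 of 4 tested called. Endoderm and liver markers (8 genes) summed to between 1664 and 3008 in wild-type and between 1197 and 1252 in knockout libraries. All 3 of these that were tested had lower knockout values without overlap, and AFP passed (limma adjusted p = 0.00661), while FOXA2 was at 0 throughout. The part of other cell types in the changes of the related genes was not tested.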

How the data were processed

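RNA was measured in 6 libraries of cardiomyocytes, 3 wild-type and 3 STK25 knockout. The deposited table holds 1 value per gene symbol and library, a signal that the authors call normalized counts. The submitters' processing notes name bcl2fastq 2.19, kallisto 0.44.0, DESeq2 1.28.1 and GRCh38, without roles. Within a tolerance of 0.01, 100% of the values in each column were whole multiples of 1 step, so reads were recovered by dividing by it; 0 per-sample columns were left unused.

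The test was limma 3.58.1 in R 4.3.3 (lmFit, eBayes with a trend) on log2(value + 1) over genes with a mean of at least 10, with all 6 libraries, no covariate, and Benjamini-Hochberg adjustment over all tested genes (threshold 0.05). Fold changes are on that log2 scale. Intervals cover 95%. The recovered reads were tested with edgeR 4.0.16 (TMM) and DESeq2 1.42.0, and the fits were tested on simulated data. Ratios within libraries used an exact permutation test (scipy 1.17.1). P-values of limma, edgeR and DESeq2 set the genotype difference against the spread between these libraries. The permutation p ranks the observed difference among all assignments of the libraries to genotypes and cannot fall below 0.1. Positions and lengths came from GENCODE 29, matched by symbol, and promoters from RefSeq. Members, lists and tests were chosen with earlier results of these data known. Genes named are the members, STK25, CTNNB1, VCL, related genes with an adjusted p under 0.05, overlapping or paralogous genes with a mean of at least 10, and nearest profiles; CTNND1, PERP, PPL, DSG1, DSG4 and the single markers were named after their values were seen. The values of 1 intercalated disc partner that passed are not reported here, though it is in the counts. Figures used matplotlib 3.10.9.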

Additional observations from a re-analysis of the deposited data

How the results depend on the processing

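No result among the 10 members passed the threshold under the 11 planned whole-data alternatives (pseudocounts, filters, scalings, block, eBayes without a trend, edgeR, DESeq2) or with 1 library left out (counts from 0 to 0); 1 passed without both wild-type replicate 2 and knockout replicate 1. Of 180 member values under alternatives 169 kept direction and side, 10 changed sign and 1 passed. The changes of sign were DSG2 at 0.039, JUP at 0.18 and PKP2 at 0.35 without knockout replicate 1, JUP at 0.10 and PKP2 at 0.12 without wild-type replicate 3, PKP2 at 0.056 without wild-type replicate 1, DES at -0.15 and CTNNA3 at -0.0075 with equal totals, and CTNNA3 at -0.040 without wild-type replicate 2 and -0.00080 without both that library and knockout replicate 1. With 1 library left out the log2 fold changes reached from -0.49 for DSG2, -0.32 for JUP, -0.46 for PKP2 and -0.43 for CTNNB1, and up to 0.43 for CTNNA3. CTNNB1 turned to 0.12 on leaving out wild-type replicate 3 and to 0.16 on leaving out knockout replicate 1. The ratio differences turned to 0.18 for PKP2 to PKP4 without knockout replicate 1 and -0.019 for JUP to CTNNB1 without wild-type replicate 3, in ranges from -1.12 and up to 0.11. Non-overlapping members numbered 1 with equal upper quartiles (CTNNA3), from 0 to 2 with 1 library left out, and 3 without wild-type replicate 2 and knockout replicate 1 (DSC2, DSP and CTNNA1), where fewer libraries separate more genes (65.7% of all). For the other settings the share over all genes is not given here, so those counts are not read as a result about the members. Calls over all genes were 1982, 3210 with DESeq2, from 796 to 2181 with 1 library left out and 4483 without those 2; with equal totals 27.4% of calls were higher in place of 46.8%. Calls among related genes were 16, from 6 to 18 with 1 library left out and 32 without those 2.

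Deviations from the genotype means correlated at -0.23, -0.40 and 0.17 between libraries of equal replicate number 1, 2 and 3. The highest correlation was 0.45, between wild-type replicate 2 and knockout replicate 1. Deviations of 3 libraries sum to 0 within a genotype, so these values cannot show whether libraries were handled in matched sets. With the replicate number as a block 798 genes passed, 9 related genes and 0 members. The cause of these shifts was not tested. Every member had at least 356 reads in each library, and the part of depth in these shifts was not tested.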
